A study of Homo sapiens with 30 samples.

Results

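MSX1, MSX2, DLX1, DLX2, DLX3, DLX4, DLX5, TBX2 and TBX3, developmental transcription factors long studied as targets of bone morphogenetic protein (BMP) signaling, were examined in breast cancer cells given BMP7. All probes that the array design assigns to these 9 genes were taken, which gave 16 of the 41000 probes of the array, for 9 of its 30484 gene names. The genes were grouped as homeodomain BMP targets, but TBX2 and TBX3 carry a T-box and no homeodomain. The data are 30 two-colour Agilent whole genome arrays of 5 human breast cancer cell lines, HCC1954, MDA-MB-231, MDA-MB-361, T-47D and ZR-75-30, with 1 array per line at each of 6 time points (30 min, 1, 3, 6, 12 and 24 h). On every array, cells given recombinant human BMP7 (Cy5) were compared with cells of the same line given vehicle for the same time (Cy3). The lines carry no introduced allele and were chosen for low production of BMP7 of their own, and MDA-MB-231 and T-47D were grown at serum concentrations other than the recommended ones. Each sample pooled 3 cultures and no line and time has a replicate, and the spread between arrays of a line also holds time and scan effects. No dyes were swapped. Any fixed dye bias of a probe therefore stays in its ratio to vehicle and cancels where time points or lines are compared.

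BMP ligands bind receptor serine/threonine kinases, which phosphorylate SMAD proteins that enter the nucleus and act on target genes. The MSX genes encode homeodomain repressors that act in limb, skull and tooth development and are classical readouts of BMP signaling. The DLX genes encode homeodomain factors of the branchial arches, forebrain, skin and bone and lie in the genome as linked pairs, such as DLX1 with DLX2 and DLX3 with DLX4. TBX2 and TBX3 encode related T-box repressors that restrain senescence, and TBX3 is needed for mammary gland development.

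The 13 slides were scanned in 2 batches. The second batch covered 6 arrays, which were those of ZR-75-30 and MDA-MB-231 at both 30 min and 6 h, the first HCC1954 array (30 min) and the T-47D array at 3 h. Between 51.7% and 68.1% of the probes of an array had a kept ratio, which means a spot well above background in both channels that was not marked as an outlier. The line labels were checked against defining markers in the vehicle channel. The epithelial keratins KRT8 and KRT18 and the cadherin CDH1 were well above background on all 6 arrays of every line with at least 1 probe. The vehicle level of CDH1 was -1.80 in MDA-MB-231, against 4.83 to 6.79 in the other lines. ERBB2 (A_23_P89249) was at 7.09 in HCC1954, 7.24 in MDA-MB-361 and 6.54 in ZR-75-30, against 3.35 in T-47D and 1.95 in MDA-MB-231. ESR1 was well above background on 0 MDA-MB-231 arrays with A_23_P309739 and A_24_P325215 but on 5 with A_24_P383478. In HCC1954, ESR1 was well above background on all 6 arrays with A_23_P309739 and A_24_P383478 and on 0 with A_24_P325215. The mesenchymal factor ZEB1 was so on 5 of 6 MDA-MB-231 arrays and on 1 array of ZR-75-30. The mesenchymal filament gene VIM (A_23_P161190) was well above background on 29 of 30 arrays, with vehicle levels of 6.92 in MDA-MB-231 and 4.41 in HCC1954 and at most -2.03 in the other lines. The leukocyte gene PTPRC was well above background on 0 of 30 arrays with one probe and on 1 with the other, the albumin gene ALB on at most 1 array with each of its probes, and the endothelial genes PECAM1 and CDH5 on 9 and 5. The PECAM1 arrays were 6 of HCC1954, at a level of -1.15, and 3 of MDA-MB-231, and all 5 CDH5 arrays were of HCC1954. Both CD3E probes were well above background on 23 and 29 arrays, and their part in the results below was not tested.

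The upstream sequences of 4 of the 9 members, from RefSeq on GRCh38.p14, were at hand. They are shown for MSX1 and MSX2, which carry some of the ratios that passed a test below, as the 250 bases before the gene start, read 5′ to 3′ on the plus strand. MSX1 lies at chr4:4859415-4859664 and MSX2 at chr5:174724332-174724581. Capitals mark matches to any of 5 motifs searched on both strands.
MSX1: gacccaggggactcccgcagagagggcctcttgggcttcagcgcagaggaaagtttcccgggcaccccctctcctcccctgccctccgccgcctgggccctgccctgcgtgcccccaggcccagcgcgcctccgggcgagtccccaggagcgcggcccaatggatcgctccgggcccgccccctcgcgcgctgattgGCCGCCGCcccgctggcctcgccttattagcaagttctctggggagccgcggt
MSX2: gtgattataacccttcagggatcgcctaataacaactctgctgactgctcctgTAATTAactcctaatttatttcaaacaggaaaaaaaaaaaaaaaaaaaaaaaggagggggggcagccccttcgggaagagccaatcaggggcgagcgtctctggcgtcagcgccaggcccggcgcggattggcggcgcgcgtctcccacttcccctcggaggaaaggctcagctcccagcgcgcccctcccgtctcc

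The motifs were GGCGCC and GCCGNCGC, GC-rich letters bound by BMP SMADs, GTCTAGAC, the palindromic SMAD element, TAATTA, the homeodomain core that MSX and DLX proteins themselves recognize, and AGGTGTGA, a T-box site. None of the 5 overlapped another in these sequences. The MSX1 window held GCCGNCGC from base -53 to -46 relative to the start, and 12.9% of 35116 RefSeq promoter windows of the same length held it. The MSX2 window held TAATTA from -197 to -192, as did 4.35% of all windows. No letters of the 5 motifs were found in the DLX1 or DLX2 window. GGCGCC occurred in 16.4%, GTCTAGAC in 0.182% and AGGTGTGA in 0.786% of all windows. Such matches describe letters and not binding.

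In vehicle-treated cells, the members were read best in MDA-MB-361 and worst in MDA-MB-231. The share of all probes detected in each line is not given, so this order is not shown to be particular to the members. Of the 16 probes, 15 were well above background on all 6 MDA-MB-361 arrays. ZR-75-30 had 13 such probes, T-47D 12, HCC1954 10 and MDA-MB-231 3, and in MDA-MB-231 another 6 probes were well above background on no array. MSX2 (A_24_P132006), DLX4 and MSX1 (A_24_P345837) were well above background on every array of every line, the last apart from 1 MDA-MB-231 array left out as an outlier spot. DLX5, a factor of osteoblast differentiation, was well above background on 1 of 30 arrays.

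**Figure D1:**
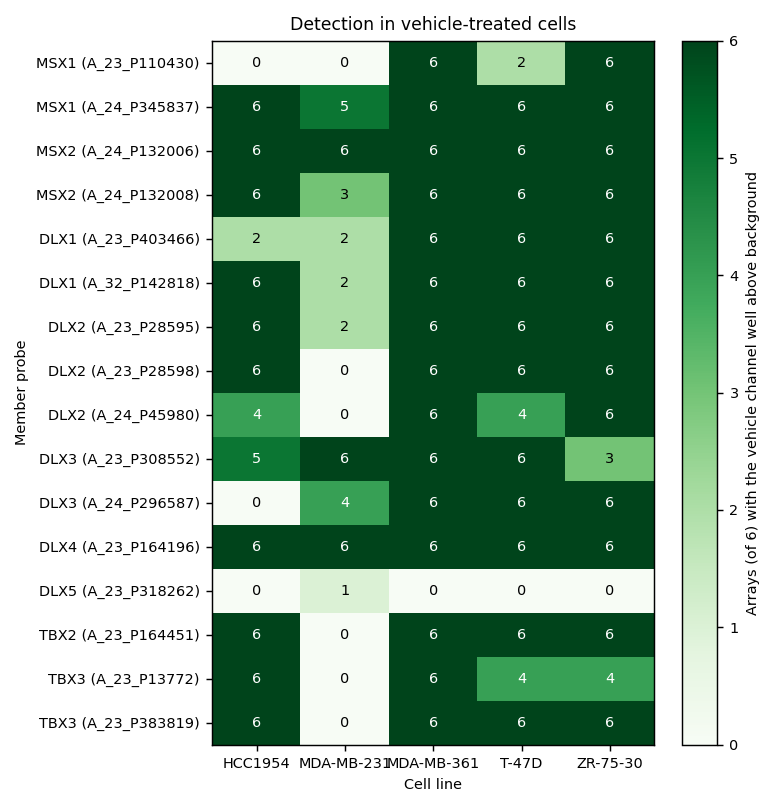
Number of arrays, of 6 per cell line (columns), on which each of the 16 member probes (rows) was well above background in the vehicle channel. MDA-MB-361 reached 6 for 15 probes and MDA-MB-231 for 3, and DLX5 reached 1 array in all.

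Vehicle levels are log2 signals of the Cy3 channel minus the 75th percentile of the array, and a level is compared only between lines for the same probe. In such bulk samples, fewer cells that carry a transcript and less of it per cell cannot be told apart. Levels of all 15 member probes bright enough to be tested differed between lines (limma F test over 30 arrays, Benjamini-Hochberg adjusted over all probes, adjusted p at most 0.0199), and so did 92.6% of all 30694 probes tested, so a difference as such is not particular to the members. Of these 15 probes, 12 were highest in MDA-MB-361 and 12 lowest in MDA-MB-231. Several of them share a gene, and the matching shares over all probes are not given. These counts are therefore not shown to be particular to the members. Of 150 differences between 2 lines, 119 passed the adjusted threshold. The matching share over all probes is not given, so this count too is not shown to be particular to the members. Between T-47D and ZR-75-30, 11 of 15 differences did not pass, which does not show equal levels, and the share over all probes is not given. Those of TBX2, DLX4, MSX1 (A_23_P110430) and DLX3 (A_23_P308552) passed. The largest was TBX2, at -4.17 on the log2 scale for T-47D minus ZR-75-30.

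Among the MSX genes, the MSX2 probe A_24_P132006 (hg18 chr5:174089974-174090033) had a vehicle level of 1.03 ± 0.62 (SD, n = 6 arrays) in MDA-MB-361. Its level was -0.91 ± 0.19 in ZR-75-30, -1.24 ± 0.24 in T-47D, -3.41 ± 0.17 in HCC1954 and -4.66 ± 0.40 in MDA-MB-231. Only the neighbours ZR-75-30 and T-47D did not differ beyond their spread (adjusted p = 0.185, limma), and MDA-MB-361 exceeded MDA-MB-231 51.7-fold. The second MSX2 probe, A_24_P132008 (chr5:174089553-174089612), gave the same order of lines, from -0.34 ± 0.61 in MDA-MB-361 down to -5.03 ± 1.43 in MDA-MB-231, where 3 of 6 arrays measured it.

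The probes of MSX1 gave different orders. With A_23_P110430 (chr4:4915945-4916004), MSX1 was at -3.47 ± 0.37 in MDA-MB-361 and -4.01 ± 0.31 in ZR-75-30, was measured on 2 of 6 T-47D arrays, and was not well above background in HCC1954 or MDA-MB-231. By the lowest signal well above background on the dim arrays, MDA-MB-361 was at least 6.76-fold above HCC1954 and at least 8.01-fold above MDA-MB-231. With A_24_P345837 (chr4:4915524-4915583), 421 bases away, HCC1954 was highest at -1.63 ± 1.27 and MDA-MB-231 lowest at -3.61 ± 0.32, and no pair among the 4 lines below HCC1954 differed beyond the spread (adjusted p at least 0.293, limma). Nor did HCC1954 differ from T-47D beyond the spread (adjusted p = 0.0586, limma). The SD of this probe was 1.24 in ZR-75-30 and 1.45 in T-47D. Its levels in ZR-75-30 were -1.39 and -2.36 on both arrays of the second scan batch and -4.45 to -4.05 on the 4 arrays of the first. In T-47D the second-batch array read -0.26 and those of the first batch -3.92 to -2.09.

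DLX1 and DLX2, neighbours on chromosome 2 that pattern the forebrain and branchial arches, shared 1 order of lines with 4 of their 5 probes, MDA-MB-361 over T-47D, ZR-75-30, HCC1954 and MDA-MB-231. For DLX1 (A_32_P142818, chr2:172662237-172662296) the levels were 1.32 ± 0.35, 0.01 ± 0.26, -0.29 ± 0.36, -3.02 ± 0.16 and -5.85 ± 0.68 in that order, and MDA-MB-231 measured it on 2 of 6 arrays. T-47D and ZR-75-30 did not differ beyond their spread (adjusted p = 0.269, limma). DLX2 (A_23_P28598, chr2:172672608-172672667) was not well above background on any MDA-MB-231 array. Its level in MDA-MB-361 was -0.92 ± 0.63, at least 42.0-fold higher, and that in HCC1954 was -3.36 ± 0.95, at least 7.78-fold higher. The 3 DLX2 probes lie within 158 bases of start positions, and 2 of them overlap, so they are not separate measurements of the gene.

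DLX3, a factor of epidermal and placental differentiation, depended on the probe as well. With A_24_P296587 (chr17:45423127-45423186) its level was -1.36 ± 0.13 in MDA-MB-361. T-47D lay between -2.42 and -1.80 and ZR-75-30 between -3.21 and -1.89, and HCC1954 was not well above background. T-47D was at least 16.1-fold above HCC1954 with this probe. With A_23_P308552 (chr17:45427130-45427189), 4003 bases away, the line means lay between -5.32 and -3.78, and the SD in T-47D was 1.30. DLX4 (A_23_P164196, chr17:45406865-45406924), its chromosomal neighbour, was at 0.02 ± 0.13 in MDA-MB-361, -2.10 ± 0.35 in ZR-75-30, -2.70 ± 0.48 in T-47D, -3.73 ± 0.40 in HCC1954 and -4.33 ± 0.20 in MDA-MB-231. The 6 MDA-MB-361 arrays lay above all others. DLX5 (A_23_P318262, chr7:96488259-96489437) was measured on MDA-MB-231 at 6 h, at -2.08, against -8.17 to -6.49 on the other arrays of that line.

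Of the T-box genes, TBX2 (A_23_P164451, chr17:56841038-56841097) was at 3.00 ± 0.24 in ZR-75-30 and 2.15 ± 0.14 in MDA-MB-361. T-47D had -1.17 ± 0.29 and HCC1954 -3.27 ± 0.27, and the line groups did not overlap. ZR-75-30 exceeded MDA-MB-361 by 0.86 ± 0.18 (SE) on the log2 scale (adjusted p = 0.000148, limma). TBX2 was not well above background in MDA-MB-231, and ZR-75-30 was at least 722-fold and MDA-MB-361 at least 399-fold higher. TBX3 (A_23_P383819, chr12:113593223-113593282) was at 1.26 ± 0.11 in MDA-MB-361, -1.38 ± 0.20 in HCC1954, -2.11 ± 0.13 in T-47D and -2.30 ± 0.27 in ZR-75-30. It was not well above background in MDA-MB-231, and MDA-MB-361 was at least 196-fold higher. The second TBX3 probe, A_23_P13772 (chr12:113594037-113594096), gave the same order. ZR-75-30 thus read highest of the 5 lines for TBX2 and lowest of the 4 lines that measured TBX3, although for TBX3 (A_23_P383819) its range of -2.63 to -1.94 overlapped that of T-47D, -2.27 to -1.94.

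**Figure D2:**
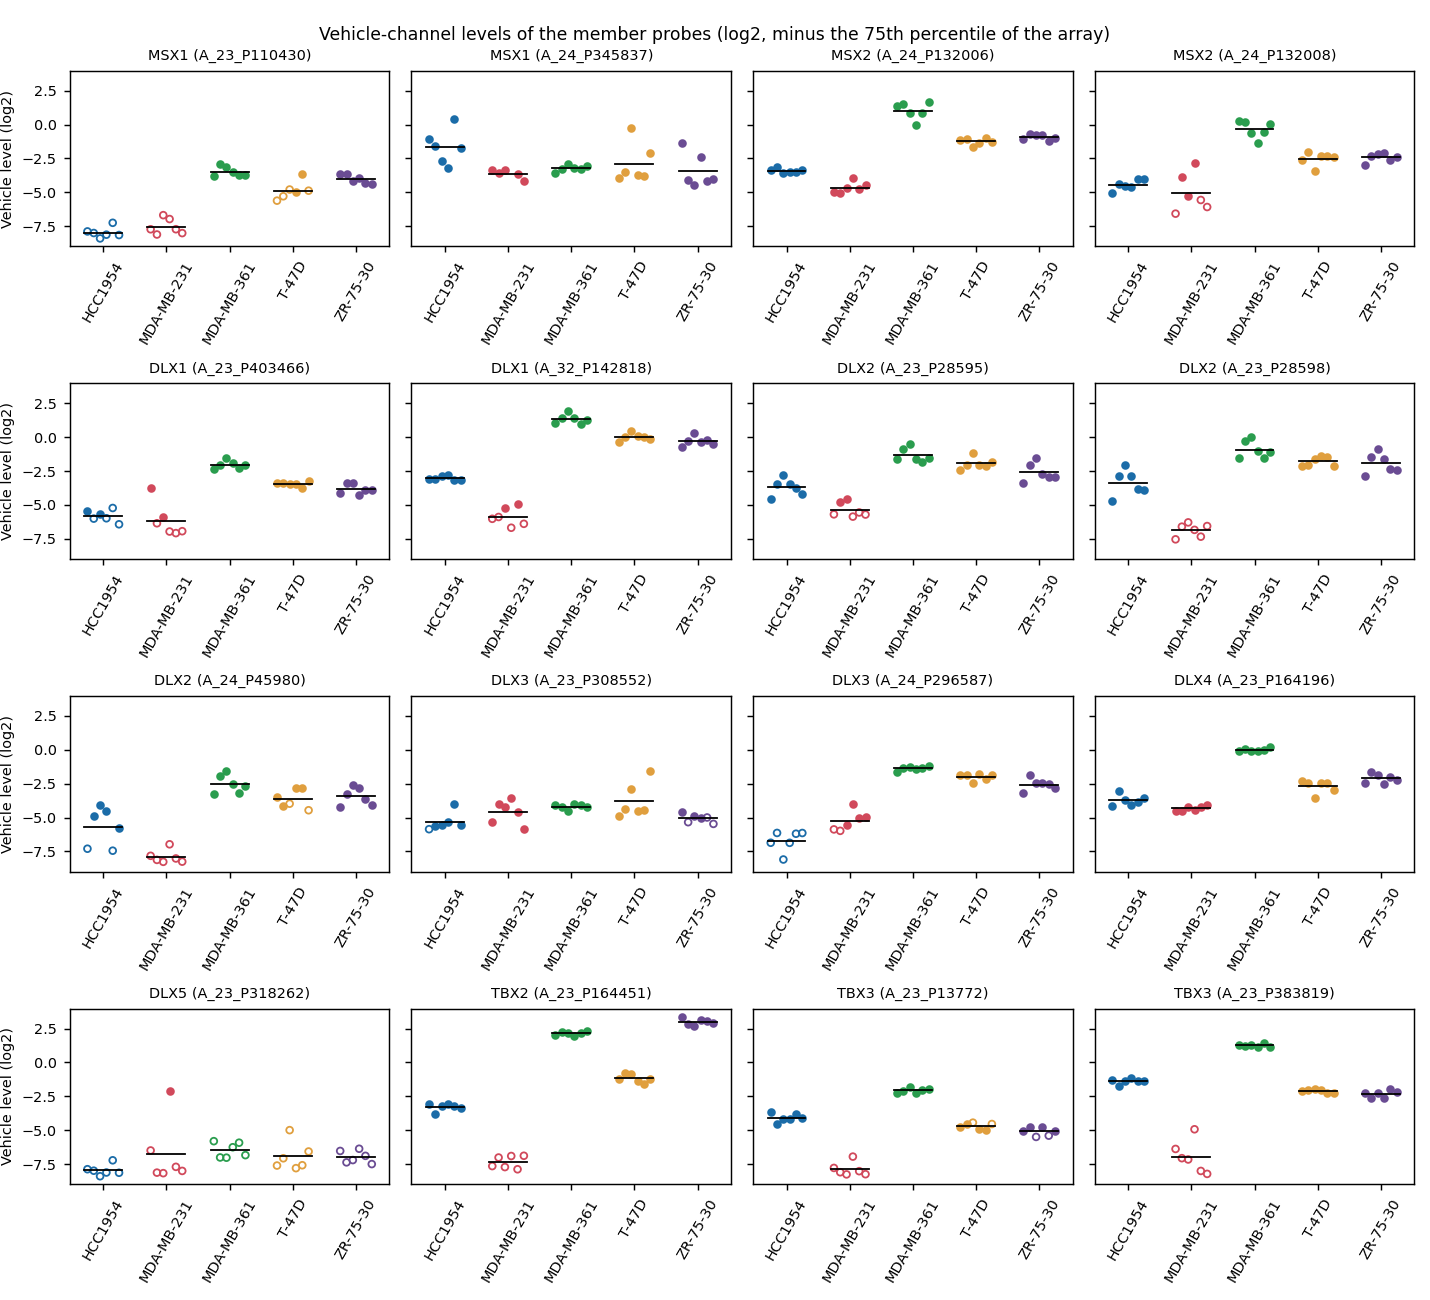
Vehicle level (log2 signal minus the 75th percentile of the array) of each member probe in each cell line, with 1 point per array in time order and a line at the mean. Filled points were well above background and open points were not. MDA-MB-361 was highest for 12 and MDA-MB-231 lowest for 12 of the 15 tested probes.

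Responses to BMP7 were small. Of 480 pairs of a member probe and an array, 355 had a kept ratio. BMP7 raised a member at least 2-fold in 6 of these pairs (1.69%) and lowered one in 0, where over all probes 0.362% of pairs were raised and 0.437% lowered. The 6 pairs lay in 4 probes. MSX1 (A_24_P345837) reached a log2 ratio of 1.85 in ZR-75-30 at 6 h, a 3.61-fold rise. DLX2 reached 1.22 (A_23_P28598) and 1.35 (A_24_P45980) in HCC1954 at 24 h, and the latter probe was raised 2.14-fold in T-47D at 1 h. DLX3 (A_24_P296587) reached 1.12 at 3 h and 1.11 at 12 h in ZR-75-30. Single pairs have no replicate and no test. With normexp background correction and loess, 1 pair was raised 2-fold in place of 6, and with median scaling 0 were raised and 1 lowered.

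At 30 min and 1 h, 61 of 117 kept ratios were above 0 (52.1%), and from 3 to 24 h 168 of 238 (70.6%). In time order, the share was 53.4%, 50.8%, 79.0%, 67.2%, 65.0% and 70.9%. Over all probes it lay between 49.4% and 51.3%. The probes of a gene and the arrays of a line are not independent, so these shares are descriptions.

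**Figure D3:**
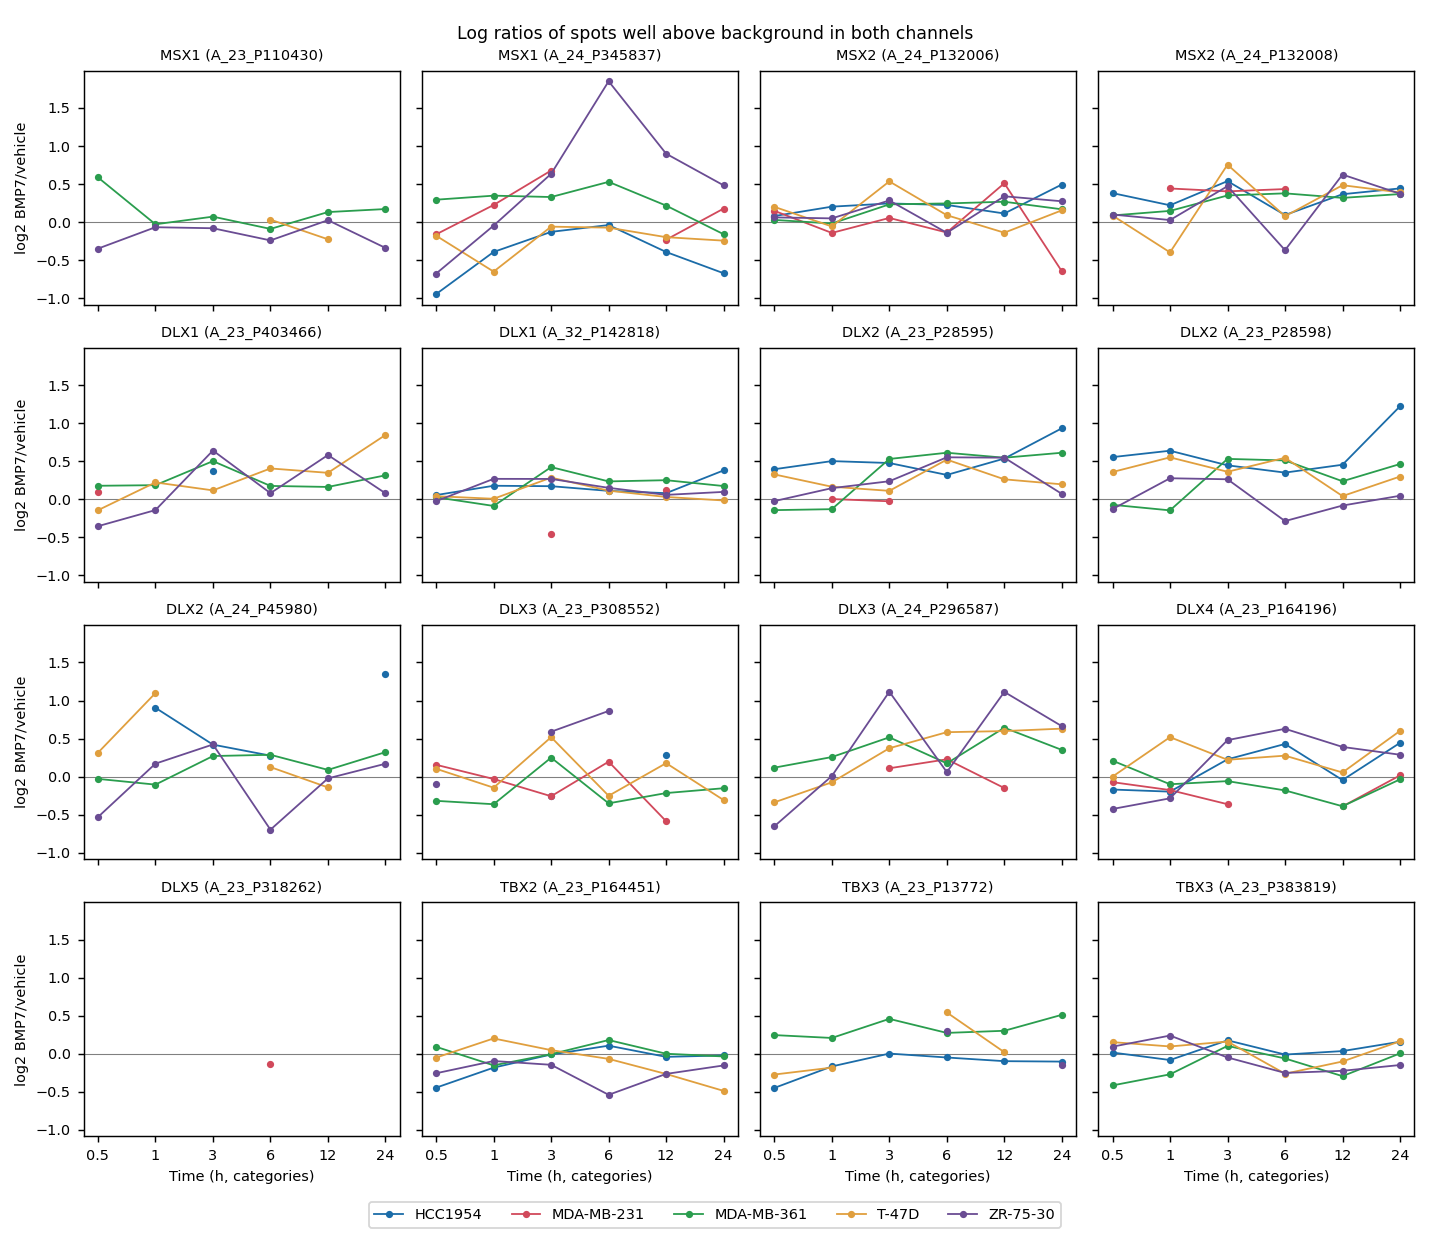
Log2 ratio of BMP7 over vehicle (vertical axis) at the 6 time points (horizontal axis, h, evenly spaced) for the 16 member probes, with 1 coloured line per cell line and gaps where a spot was not well above background in both channels. Most ratios lie within 1 of 0, and MSX1 (A_24_P345837) in ZR-75-30 reaches 1.85 at 6 h.

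MSX2 was the member whose mean ratio differed from 0. The mean over all time points of a line was tested over lines for the 14 probes with 3 or more kept arrays in 3 or more lines. With A_24_P132008, the MSX2 ratio averaged 0.30 ± 0.05 (SE, 5 lines) on the log2 scale (adjusted p = 0.0460, limma), and all 5 lines were above 0. A fixed dye bias would stay in this mean, and its part was not tested. The change of this probe from 30 min to 3 to 24 h, in which such a bias cancels, was 0.19 ± 0.14 (SE, adjusted p = 0.429, limma). The line means ran from 0.43 in MDA-MB-231 (3 arrays) over 0.34 for HCC1954, 0.28 for MDA-MB-361 and 0.23 for T-47D to 0.20 for ZR-75-30. Of its 27 kept ratios, 25 were above 0, the lowest being -0.40 in T-47D at 1 h and the highest 0.75 in T-47D at 3 h. The other MSX2 probe averaged 0.12 ± 0.05 (adjusted p = 0.316), with 23 of 30 ratios above 0. The call for MSX2 was made in 3 of 19 alternative settings, with adjusted p between 0.0394 and 0.302. Among these 3, no median shift and outlier-marked spots kept left the estimate unchanged and so hardly tried it. The call was lost without any single line and without any time point but 30 min, and the estimate lay between 0.14 and 0.32.

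The share of all 25700 probes raised in this test was 0.541%, against 1 of 14 member probes. Of the 14, 12 had a mean above 0, with a median of 0.13, where 48.8% of all probes were above 0 and their median was -0.0031. DLX2 came next with A_23_P28595, at 0.35 ± 0.07 (adjusted p = 0.0723), above 0 in the 4 lines tested, and its line mean was highest in HCC1954 at 0.53, where all 6 ratios lay between 0.32 and 0.93. The overlapping DLX2 probe A_23_P28598 gave 0.31 ± 0.09 (adjusted p = 0.177). TBX2 at -0.11 ± 0.06 and TBX3 (A_23_P383819) at -0.03 ± 0.06 were the probes with an estimate below 0, and neither passed the test (adjusted p = 0.462 and 0.856).

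DLX3 rose between the first and the later time points. The late change, the mean log ratio at 3, 6, 12 and 24 h minus that at 30 min with cell line as a block, answers when a response appeared and is free of a constant dye effect. With A_24_P296587, DLX3 rose by 0.86 ± 0.20 (SE, adjusted p = 0.0334, limma). The late arrays of a line enter this fit as separate values though they are not replicates. The SE and p of a late change thus measure spread between arrays and not between lines. The estimates of the 3 lines that could be tested were all above 0. They were 1.39 ± 0.31 in ZR-75-30, 0.88 ± 0.31 in T-47D and 0.30 ± 0.31 in MDA-MB-361, and of these only the first passed a test of its own (adjusted p = 0.0237, against 0.565 and 1.00). In T-47D its log2 ratios from 30 min to 24 h were -0.34, -0.07, 0.37, 0.58, 0.60 and 0.63, and the 4 late values lay above both early ones. In MDA-MB-361 they were 0.12, 0.26, 0.52, 0.17, 0.64 and 0.35, and 30 min was the lowest. The other DLX3 probe gave 0.12 ± 0.18 (adjusted p = 0.743), with changes from -0.37 in MDA-MB-231 to 0.82 in ZR-75-30. The DLX3 call was held in 9 of 17 alternatives and the sign in all 17. Some of the settings that held the call left the estimate unchanged and so hardly tried it. They were no median shift, outlier-marked spots kept, 1 channel above background being enough, and leaving out MDA-MB-231, which has no late change for this probe. With scan batch as a term the rise was 0.76 ± 0.16 (adjusted p = 0.0630), with normexp and loess it was 0.48 ± 0.14 (adjusted p = 0.0921), with normexp and median scaling 0.47 ± 0.20 (adjusted p = 0.718), and without 3 h or 12 h adjusted p was 0.0550 and 0.102. The call was also lost without HCC1954 (adjusted p = 0.126), a line with 0 kept ratios for this probe, and the estimate stayed at 0.86. Without any of the 3 lines that could be tested no fit was made.

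In this test 2.25% of all 24976 probes rose, against 1 of 14 member probes. The estimates of all 14 member probes, some of the same gene, were above 0, with a median of 0.18, where 49.6% of all probes were above 0. The lines were not uniform. TBX2 (0.06) was above 0 in 1 of 4 lines, and TBX3 (A_23_P383819, 0.0009) and DLX3 (A_23_P308552, 0.12) in 2 of 4. Both DLX1 probes, DLX3 (A_24_P296587) and TBX3 (A_23_P13772) were above 0 in every line tested. Adjusted p was 0.0954 for DLX1 (A_23_P403466, 0.46 ± 0.16), 0.0957 for TBX3 (A_23_P13772, 0.35 ± 0.12), 0.117 for MSX1 (A_24_P345837, 0.53 ± 0.20) and 0.135 for DLX2 (A_23_P28595, 0.30 ± 0.12). The latter was called with 1 h counted as early (adjusted p = 0.0495), and DLX1 and TBX3 where 1 channel above background was enough (adjusted p = 0.0467 and 0.0473). The count of estimates above 0 depends on the setting, since with normexp and median scaling it was 78.6%.

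**Figure D4:**
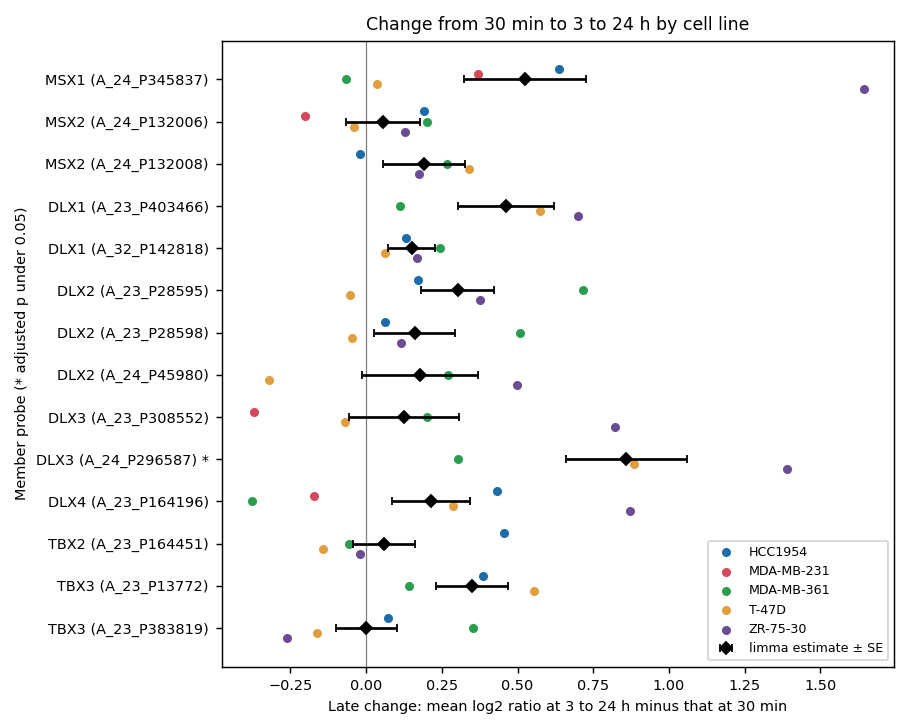
Late change of the 14 tested member probes on the log2 scale (horizontal axis) for each cell line (coloured points), with the limma estimate and its SE (black diamonds and bars). The estimate for DLX3 (A_24_P296587), the 1 probe that passed, is 0.86, and the ZR-75-30 points of MSX1 (1.64) and of that DLX3 probe (1.39) lie farthest to the right.

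Within single lines, 3 member probes passed the test and all lay in ZR-75-30, and with 1 h in place of 30 min 0 passed. The fit took each line's 4 late arrays against its 30 min array, with the spread shared over lines. That lone array is assumed to vary like the others, an error in it is not covered by the SE, and in ZR-75-30 it belonged to the second scan batch. Against that array, MSX1 (A_24_P345837) rose by 1.64 ± 0.38 (SE, adjusted p = 0.0201, limma), DLX3 (A_24_P296587) by 1.39 ± 0.31 (adjusted p = 0.0237) and DLX4 by 0.87 ± 0.22 (adjusted p = 0.0317). Of all 24837 probes, 3.21% rose in ZR-75-30, against 3 of 14 member probes. In the other 4 lines, 0 of 43 tests of members passed in limma (lowest adjusted p = 0.565) where 0.0289% of all tests passed. An unadjusted p under 0.05 was found in 5 of the 43, and in 4.16% of all tests in those lines. In ZR-75-30 it was found for 5 of 14 member probes and for 5325 of all 24837 probes. Unadjusted changes against its lone 30 min array were thus common over the whole array.

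In ZR-75-30 the MSX1 log2 ratios from 30 min to 24 h were -0.68, -0.05, 0.63, 1.85, 0.90 and 0.48. All late values lay above both early ones. DLX4 had -0.43, -0.29, 0.48, 0.63, 0.39 and 0.29, with the same separation. DLX3 had -0.65, 0.01, 1.12, 0.06, 1.11 and 0.66, and its 6 h value lay with the early ones.

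The ZR-75-30 arrays at 30 min and 6 h shared a slide and the second scan batch, so each batch could be read alone. From 30 min to 6 h, in the second batch, the log2 ratio rose from -0.68 to 1.85 for MSX1, from -0.43 to 0.63 for DLX4 and from -0.65 to 0.06 for DLX3. In the first batch, the mean of 3, 12 and 24 h lay above 1 h by 0.72 for MSX1, 0.67 for DLX4 and 0.96 for DLX3. With 1 h in place of 30 min, a choice made after seeing the data, the estimate was 1.01 for MSX1 (adjusted p = 0.303), 0.73 for DLX3 (adjusted p = 0.408) and 0.73 for DLX4 (adjusted p = 0.161). With scan batch as a term the rises were 2.13 ± 0.38 (adjusted p = 0.00387), 0.97 ± 0.27 (adjusted p = 0.0596) and 0.93 ± 0.26 (adjusted p = 0.0417). With normexp and median scaling none of the 3 passed (adjusted p from 0.326 to 0.489), and with normexp and loess DLX3 did not (adjusted p = 0.117). Leaving out 3 h ended all 3 calls, leaving out 12 h those of MSX1 and DLX3, and leaving out 6 h that of DLX4. The second MSX1 probe, A_23_P110430, changed by 0.19 ± 0.19 in ZR-75-30 (adjusted p = 0.618), with ratios from -0.35 to 0.03. The second DLX3 probe changed by 0.82 ± 0.36 (adjusted p = 0.195).

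Both channels moved for MSX1. Its BMP7 level in ZR-75-30 was -2.07 at 30 min and -0.50 at 6 h, and between -4.11 and -3.26 at the other time points. The vehicle level was likewise higher in the second scan batch, as given above. From 30 min to 6 h, however, the vehicle level fell from -1.39 to -2.36 while the BMP7 level rose. For DLX3 (A_24_P296587) the vehicle level was -3.21 at 30 min and -2.85 to -1.89 afterwards. For DLX4 it was -2.44 at 30 min, -2.53 at 6 h and -2.20 to -1.61 at the other time points. The part of these levels in the ratios was not tested.

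**Figure D5:**
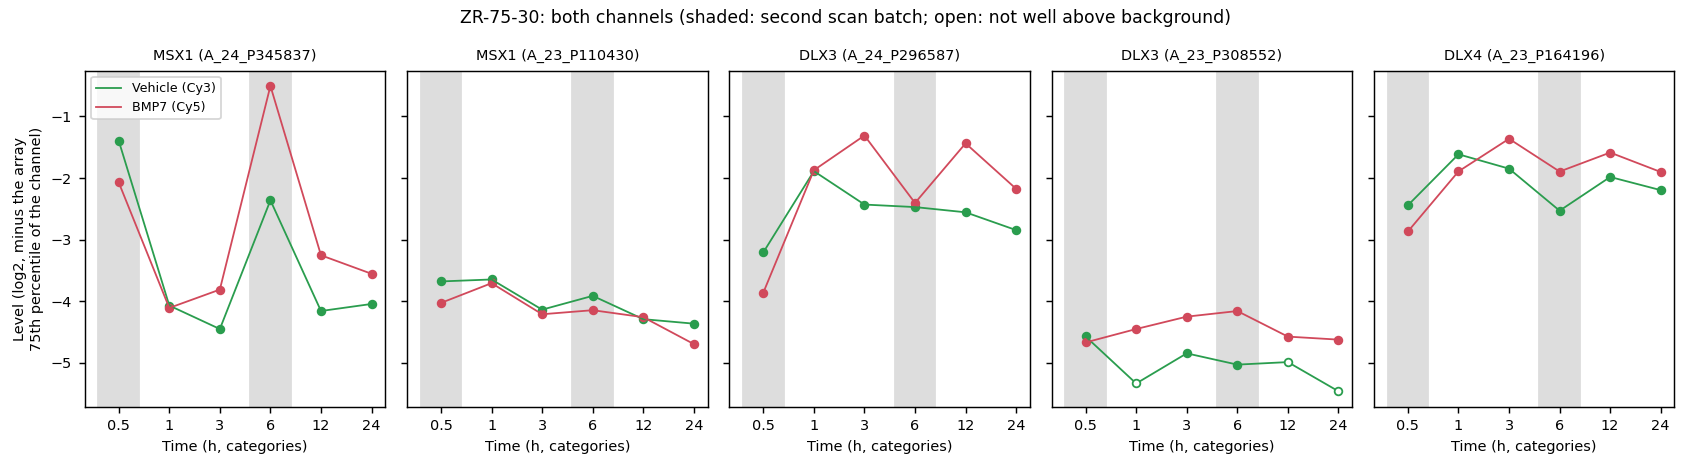
Vehicle (green) and BMP7 (red) levels in ZR-75-30 by time (h, evenly spaced) for the probes of MSX1, DLX3 and DLX4, as log2 signal minus the 75th percentile of the channel. Shading marks both arrays of the second scan batch and open points are not well above background. The BMP7 level of MSX1 (A_24_P345837) is -0.50 at 6 h and that of the second MSX1 probe stays below -3.

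A test of whether the late change differed between lines was possible for the 3 member probes kept in all 5 lines. None passed in limma (adjusted p = 0.607 for DLX4, 0.952 for MSX1 and 1.00 for the MSX2 probe A_24_P132006), and 0.0428% of 21022 probes passed. An unadjusted p under 0.05 was found for 2 of the 3, and for 4.83% of all probes. The rises of MSX1 and DLX4 in ZR-75-30 were not shown to differ from the values in other lines, and for DLX3 the difference was not tested. The late change of DLX4 was -0.38 in MDA-MB-361 and 0.43 in HCC1954, and that of MSX1 was -0.07 and 0.64.

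Probes of the same gene were compared next. Over shared arrays, the difference of log ratios between probes had an SD of 0.23 for MSX2 (27 arrays), 0.24 to 0.45 for the DLX2 pairs, 0.30 for DLX1, 0.40 for TBX3, 0.49 for DLX3 and 0.65 for MSX1 (14 arrays). The correlation of log ratios was 0.50 for MSX2, 0.39 to 0.88 for DLX2, 0.11 for DLX1, 0.24 for DLX3, -0.05 for MSX1 and -0.46 for TBX3, whereas that of vehicle levels was 0.98 for TBX3, 0.94 for DLX1 and 0.93 for MSX2 but 0.37 for MSX1 and 0.23 for DLX3. These values come from arrays that share lines, and are given as descriptions. MSX1 and DLX3, which hold most of the late calls, are the genes whose probes followed each other least in level.

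Among 14 established BMP targets, 15 probes of 13 genes had a late test, of which 7 rose and 0 fell. Their median late change was 0.67 and that of the members 0.18, a difference that was not tested. The values overlapped, from -0.26 for RUNX2 and 0.15 for BAMBI upward. Those that rose were ID2 (1.17 and 0.70), ID1 (1.05) and ID3 (0.92), inhibitors of basic helix-loop-helix factors, SMAD6 (0.67), an inhibitory SMAD, SMAD9 (0.71), a receptor SMAD, and GATA2 (0.58), a zinc finger factor. ID1, ID2 (A_32_P69368) and ATOH8 were also raised in the mean over time, at 0.81, 0.92 and 0.73. In ZR-75-30 4 of the 15 rose, namely SMAD6, ID2 and both GATA2 probes. Of 14 further DLX and T-box genes with 17 probes, 4 probes were tested and 0 moved late (limma, adjusted p at least 0.707), and DLX6, the chromosomal partner of DLX5, was well above background on 0 of 30 arrays.

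For the 9 member probes kept on at least 24 arrays, the genes with the most similar log ratios were sought among 17131 probes with a gene symbol. CTBP1, C21orf58 and LBH followed MSX1 (A_24_P345837) with Pearson r of 0.94, 0.92 and 0.91 over 26 to 29 arrays. PIK3R3, JMJD1C and REST followed DLX4 (0.85 to 0.79), and MGLL, WIPF2 and RTN3 followed TBX2 (0.84 to 0.78). HOXC13, KBTBD7 and SENP8 followed DLX2 (A_23_P28598, 0.82 to 0.78), and SAMD11, RHOBTB3 and CTSB the probe A_23_P28595 (0.67 to 0.62). HIP2, CASKIN2 and MAP3K2 followed MSX2 with A_24_P132006 (0.79 to 0.77), and APEX1, C20orf43 and RNF19 with A_24_P132008 (0.73 to 0.70). SLAIN2, SDCCAG8 and RHOQ followed TBX3 (A_23_P383819, 0.78 to 0.77), and SPSB1, SNIP and MAPT followed DLX1 (A_32_P142818, 0.59 to 0.57). The arrays share lines and slides, and these values are descriptions of the ratios alone.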

How the data were processed

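Per the file headers, the authors extracted the arrays with Feature Extraction 9.5.1.1, which gave background-corrected and dye-normalized intensity in each channel and log10 ratios. The authors also deposited log2 ratios with an array median of 0 (median 0 in every column), in the direction BMP7 over vehicle. Control spots and outliers were dropped, ratios were put on the log2 scale, replicate spots averaged, each array was shifted to median 0, and ratios were kept where both channels were well above background. Vehicle intensity was changed to log2 and centered on the 75th percentile of the array, for probes well above background on 3 arrays of a line. limma 3.58.1 in R 4.3.3 was used with Benjamini-Hochberg adjustment over all probes and a threshold of 0.05. Late changes needed the 30 min array and 2 late arrays of a line, and 3 lines. Each fit was tested on simulated data of independent noise with planted changes. These data held no scan batch, slide or faulty 30 min array, so the fits were not tried against such effects. A bound uses, per array, the higher of the lowest signal well above background and the signal of the probe itself.

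All member probes are named, by a rule that also took the pathway lists, genes of those lists past a test, and the 3 most similar genes per probe kept on 24 arrays. Members and lists were chosen with earlier results of these data known. Precision is limited by how many arrays there are and by signal above background, and p-values measure the spread between lines or arrays. RefSeq listed all 9 symbols, and probe positions are those of the array design on hg18. Alternatives were other background corrections and normalizations, filters, early and late periods, scan batch, slide, and leaving out lines or time points.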

Additional observations from a re-analysis of the deposited data

Results flagged for a closer look

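For 3 probes, every late ratio of one cell line lay above its 30 min value and every late ratio of another line below it. All pairs of lines were searched for the member probes without a test between lines. No share over all probes and no chance rate was taken, so the count is not shown to be particular to the members. The difference was not tested for these probes, which were not kept in all 5 lines. With MSX1 (A_23_P110430), the late change was 0.19 in ZR-75-30 and -0.52 in MDA-MB-361, a difference of 0.71 on the log2 scale over 4 late arrays each. With TBX3 (A_23_P383819), it was 0.35 in MDA-MB-361 and -0.26 in ZR-75-30, a difference of 0.62. With DLX2 (A_24_P45980), it was 0.27 in MDA-MB-361 over 4 late arrays and -0.32 in T-47D over 2, a difference of 0.59. Each rests on 1 array at 30 min per line, and the ZR-75-30 array at 30 min belonged to the second scan batch. Vehicle levels of a probe in a line were checked for a single array far from the others in the 68 sets with at least 1 array well above background. In 3 sets the gap to the nearest array was large against the whole range, where chance gives about 1 in 20. They were DLX5 in MDA-MB-231 (-2.08 at 6 h, against -8.17 to -6.49), DLX1 (A_23_P403466) in MDA-MB-231 (-3.73 at 30 min, against -7.08 to -5.89) and DLX3 (A_23_P308552) in HCC1954 (-3.97 at 12 h, against -5.85 to -5.36). Both MDA-MB-231 arrays belonged to the second scan batch and the HCC1954 array to the first. The probes were well above background there on 1, 2 and 5 of 6 arrays, and 0 of the 53 sets with all 6 arrays well above background had such an array.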

How the results depend on the processing

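The vehicle results changed least. Between 13 and 15 member probes differed between lines in the 11 alternatives, 11 to 13 were highest in MDA-MB-361 and 9 to 12 lowest in MDA-MB-231. The count of 1 member with a mean ratio other than 0 became 0 with all spots, with 1 channel enough, with normexp and loess, with normexp and median scaling, with the series matrix values and in the first scan batch alone, and lay between 0 and 1 when a line or time point was left out. The count of 1 late change became 0 with all spots, either normexp setting, scan batch as a term, and 30 min and 1 h against 12 and 24 h, became 3 with 1 channel enough and 2 with 1 h counted as early, and lay between 0 and 1 when a line or time point was left out. The late test in the first scan batch alone gave no value, since 2 lines remained where 3 were needed. The 3 rises in ZR-75-30 became 0 with normexp and median scaling and with 1 h in place of 30 min, and lay between 0 and 3 when a late time point was left out. In the other lines the count of 0 became 1 with all spots (DLX5 in MDA-MB-231, well above background on 1 of 6 arrays) and 2 with normexp and median scaling, where TBX3 (A_23_P383819) in HCC1954 reversed from 0.07 to -0.84. With all spots, 1 member differed in late change between lines. The 6 pairs raised 2-fold became 1 with normexp and loess, 0 with normexp and median scaling and 1 at 3-fold, and the 0 lowered pairs became 3 with all spots, 2 with 1 channel enough and 1 with normexp and median scaling. The causes were not tested. Alternatives of the within-line fit on time points and scan batch, and the counts of highest and lowest lines under the alternatives, were chosen after seeing the data. Each ratio pairs BMP7-treated and vehicle-treated cells of the same line and time on 1 array. The labels give no replicate numbers that would pair arrays with each other, and cell line served as the block of the late change.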
